A study of Mus musculus with 21 samples.

Results

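The Tim proteins of the mitochondrial inner membrane and intermembrane space were followed as RNA in the livers of mice given an antisense inhibitor of microRNA-122. The set held 10 genes, namely Timm9, Timm10, Timm10b, Timm8a1, Timm8b, Timm13, Timm22, Timm23, Timm17a and Timm50, out of 18193 genes with a named probe set. Members were taken by gene symbol, over 18 of the 45101 probe sets on the array. The set was proposed because Timm9 and Timm8a1 had lower values in treated than in saline livers at every day, so those treated-minus-saline values selected the members and are given below as a description, with no p-value for any member. Female NMRI mice, an outbred stock, received 25 mg/kg SPC3372, an LNA-modified oligonucleotide complementary to microRNA-122, on day 2. Control mice of the same stock and sex received saline, the vehicle; no ages are given here. Livers were taken on days 3, 9 and 23 from 3 mice in each of the 6 groups, and total RNA was hybridised to 1-colour Affymetrix arrays. The arrays form the sets p0617 (days 3 and 9) and p0621 (day 23), as named in the labels, and the 3 treated mice of day 23 were also hybridised in p0617. The labels use mouse numbers 1, 2 and 3 for saline mice of both day 3 and day 9, and number 8 for a treated mouse of each of those days; livers of different days were taken to be from different mice.

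Nearly all mitochondrial proteins are made in the cytosol and enter through the TOM pore of the outer membrane. The small Tim proteins, known best from yeast and human cells, are cysteine-rich chaperones that take water-insoluble precursors across the intermembrane space. Timm9 with Timm10 carries metabolite carriers to the TIM22 insertion complex, and Timm8a1 with Timm13 serves a separate group of precursors. The TIM23 complex, built around Timm23 and Timm17a with Timm50 as its receptor, imports proteins that bear a cleavable leader sequence. Liver cells are rich in mitochondria, and their urea cycle and fatty acid oxidation depend on imported enzymes and carriers.

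Timm9, Timm8a1 and Timm10 were the 3 members called lower in treated livers at day 3, and their promoter windows are shown because the account turns on these genes. All 10 members were matched in a RefSeq promoter table of build GRCm38.p6, which gives 250 bases before to 50 bases after a start site of each gene, here on the gene's own strand and 5′ to 3′. The windows are chr12:71136626-71136925 on the minus strand for Timm9, chrX:134541621-134541920 on the minus strand for Timm8a1, and chr2:84826771-84827070 on the plus strand for Timm10. Capitals mark CACGTG, the palindromic E-box, which reads the same on both strands.
Timm9: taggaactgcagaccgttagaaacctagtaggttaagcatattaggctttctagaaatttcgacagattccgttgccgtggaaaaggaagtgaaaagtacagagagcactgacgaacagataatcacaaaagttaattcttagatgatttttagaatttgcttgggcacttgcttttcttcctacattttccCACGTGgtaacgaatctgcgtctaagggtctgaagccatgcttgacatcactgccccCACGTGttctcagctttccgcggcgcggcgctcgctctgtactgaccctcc
Timm8a1: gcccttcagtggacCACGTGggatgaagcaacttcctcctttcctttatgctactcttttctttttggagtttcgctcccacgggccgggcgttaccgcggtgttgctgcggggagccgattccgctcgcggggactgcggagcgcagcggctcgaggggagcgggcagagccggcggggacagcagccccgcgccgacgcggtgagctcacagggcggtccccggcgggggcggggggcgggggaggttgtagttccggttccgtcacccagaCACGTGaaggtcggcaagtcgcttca
Timm10: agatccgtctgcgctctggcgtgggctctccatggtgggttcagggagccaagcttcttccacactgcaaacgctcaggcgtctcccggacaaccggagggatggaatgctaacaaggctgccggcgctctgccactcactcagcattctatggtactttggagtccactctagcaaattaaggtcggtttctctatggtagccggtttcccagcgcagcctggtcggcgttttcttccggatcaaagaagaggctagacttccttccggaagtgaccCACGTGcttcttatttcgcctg
Timm9 carried the E-box 2 times, with first bases at -58 and -1 from the start site of the table (that base counted as 0), and Timm8a1 carried it 2 times, at -236 and 24. Timm10 carried it 1 time, at 28, and the other 7 members had none in the window. The table's start site for Timm9 lies 33 bases inside the RefSeq bounds of the gene, so counted from that outer bound the Timm9 copies begin at -25 and 32. For Timm8a1 and Timm10 the site and the bound are the same base. Of all 32851 windows in the table, 7.15% held 1 or more copies and 0.594% held 2 or more. The E-box was noticed by eye in these sequences after the expression values were known, so its presence in these 3 members is a description. It was 1 of 6 motifs searched on both strands. The ETS letters CCGGAAG lay in 4 members (Timm10, Timm10b, Timm23 and Timm8b) and in 8.86% of all windows, and CCAAT lay in 2 members (Timm17a and Timm50) and in 37.4%. The YY1 letters AAGATGGC lay in 1 member (Timm50) and in 2.75% of windows. An NRF1 palindrome, GCGC on either side of any 2 bases, lay in 1 member (Timm8b) and in 6.23%, and the form with AT in its middle lay in 0 members and in 0.971%.

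All 10 genes were measured above the median level of all probe sets (4.79 on the log2 scale), each by its brightest probe set. Between mice of a group, whole arrays correlated at 0.992 to 0.995 over probe sets. As a check of treatment, 5 of 5 measured genes known as targets of microRNA-122 (Aldoa, Bckdk, Ccng1, Hjv and Ndrg3) rose at day 3 and 5 of 5 at day 9. This list was chosen with earlier results of these data known, so the check is not independent. Of all genes, 2.63%, 1.91% and 0.187% were called higher at days 3, 9 and 23. At day 23, 1 of 5 (Ccng1) rose by the same limma test adjusted over all genes, while 5 of 5 had an unadjusted p under 0.05 and 4 of 5 had all treated mice above all saline mice (median difference 0.50). Hepatocyte markers (Alb, Apoa1, Ttr, Serpina1c, Cyp2e1, Tat, Apoc3 and Hnf4a) were all above the median level, 0 of 8 were called at any day by limma (0, 1 and 0 at an unadjusted p under 0.05), and their summed linear signal was 147303 to 149739 in treated livers against 144960 to 147586 in saline livers at day 3. It was 142279 to 146090 in treated livers against 140508 to 145387 in saline livers at day 9, and 147777 to 149257 in treated livers against 144616 to 145867 in saline livers at day 23, where the groups were apart. The brightest of these markers, Alb, Apoa1 and Ttr, had mean levels of 14.84, 14.63 and 14.58, near the highest value of any array (14.98). Serpina1c (14.46), Cyp2e1 (14.12) and Apoc3 (13.93) also add to the sums. In bulk liver RNA, fewer cells of a type and less RNA per cell cannot be told apart.

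Timm9 and Timm8a1 lay lower in treated livers at all 3 days, by 0.35 to 0.51 log2 units, and no treated mouse reached the saline range of its day. Timm10 was lower at days 3 and 23 with a smaller difference at day 9. Timm17a went the other way, being higher in treated livers at days 3 and 9. The channel proteins Timm22 and Timm23 stayed within 0.14 log2 units of saline at every day by their brightest probe sets. All treated mice still lay below all saline mice for Timm23 at day 23. These differences are on the log2 scale of the deposited values.

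Timm9, which forms the carrier chaperone with Timm10, lies on chromosome 12 (71123172 to 71136708, GRCm38.p6). At day 3 its log2 level was 7.44, 7.51 and 7.55 in treated mice, against 8.02, 8.08 and 7.93 in saline mice. At day 9 it was 6.97, 7.09 and 7.12 in treated mice, against 7.38, 7.47 and 7.48 in saline mice. At day 23 it was 7.03, 6.93 and 7.03 in treated mice, against 7.36, 7.34 and 7.34 in saline mice. Every treated mouse lay below every saline mouse of its day. The difference was -0.51 at day 3, -0.38 at day 9 and -0.35 at day 23 (SE 0.07 for each), which put treated livers at 70.1%, 76.7% and 78.3% of saline. A second Timm9 probe set lay below the median level (mean 3.41); its differences were -0.52, -0.47 and -0.10 (SE 0.21) and its groups overlapped at all 3 days.

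Timm8a1, the mouse counterpart of the human gene mutated in Mohr-Tranebjaerg deafness-dystonia syndrome, lies on chromosome X (134537256 to 134541670). Its log2 level at day 3 was 9.91, 9.98 and 10.004 in treated mice, against 10.37, 10.49 and 10.19 in saline mice. Its level at day 9 was 9.93, 9.78 and 10.0025 in treated mice, against 10.46, 10.25 and 10.38 in saline mice. Its level at day 23 was 9.86, 9.75 and 9.97 in treated mice, against 10.36, 10.33 and 10.38 in saline mice. The groups were apart at every day, with the highest treated mouse of any day (10.004) below the lowest saline mouse of any day (10.19). The differences were -0.39, -0.46 and -0.50 at days 3, 9 and 23 (SE 0.09), or 76.6%, 72.6% and 70.9% of saline. The second Timm8a1 probe set was dimmer (mean 8.35) and gave larger differences of -0.55, -0.54 and -0.65 (SE 0.08), again with all treated mice below all saline mice at each day.

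Timm10, the partner of Timm9, lies on chromosome 2 (84827021 to 84830213). At day 3 its log2 level was 9.06, 9.30 and 8.93 in treated mice, against 9.45, 9.64 and 9.77 in saline mice. At day 9 it was 9.20, 9.13 and 9.36 in treated mice, against 9.43, 9.33 and 9.22 in saline mice. At day 23 it was 8.96, 8.86 and 9.05 in treated mice, against 9.23, 9.497 and 9.42 in saline mice. The groups were apart at days 3 and 23 and overlapped at day 9. The differences were -0.52, -0.10 and -0.43 (SE 0.11), so at day 9 treated livers held 93.2% of saline.

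Timm17a, a core subunit of the TIM23 complex, lies on chromosome 1 (135301535 to 135313737) and was the member called higher. Its log2 level at day 3 was 9.55, 9.68 and 9.72 in treated mice, against 9.28, 9.25 and 9.30 in saline mice. Its level at day 9 was 9.74, 9.78 and 9.80 in treated mice, against 9.39, 9.22 and 9.36 in saline mice. Its level at day 23 was 9.29, 9.33 and 9.13 in treated mice, against 9.06, 9.43 and 9.06 in saline mice. All treated mice exceeded all saline mice at days 3 and 9, and the groups overlapped at day 23. The differences were 0.37, 0.45 and 0.07 (SE 0.10), a ratio of 1.29, 1.37 and 1.05 to saline.

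**Figure D1:**
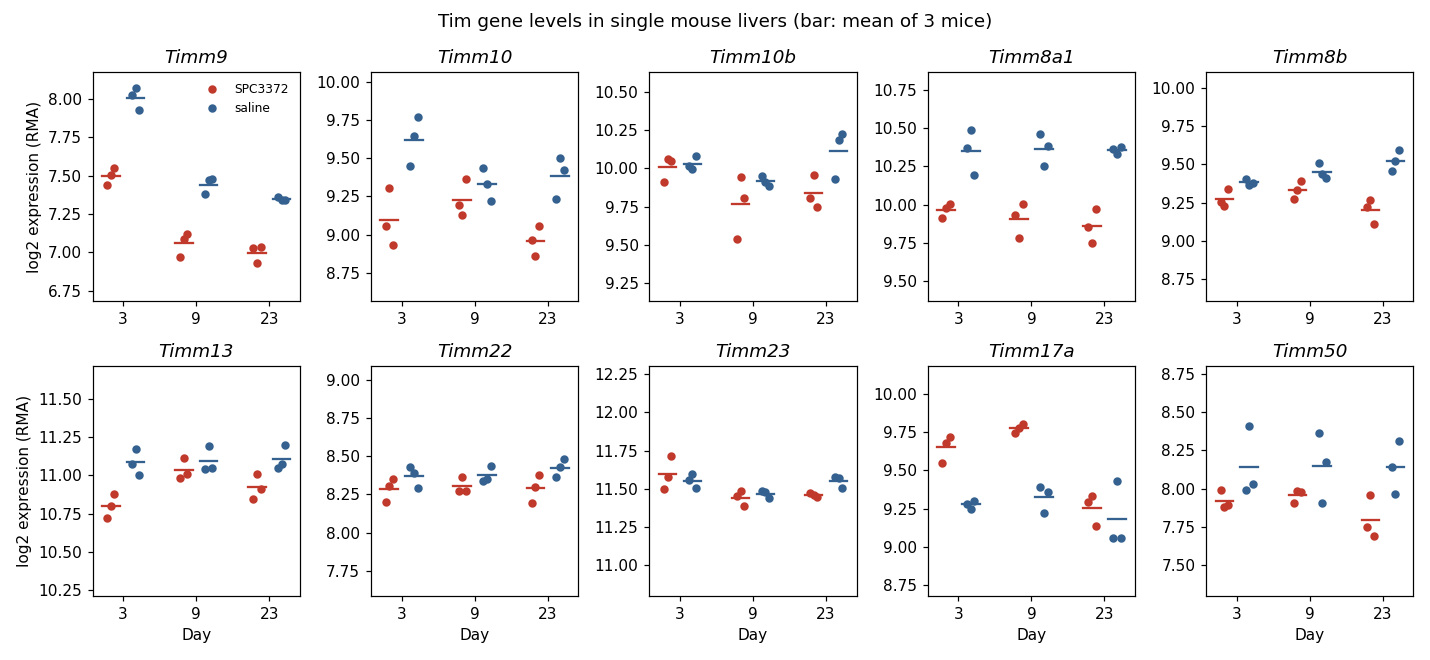
Log2 level (RMA, vertical axis, own range for each gene, each panel spanning the same height) of the 10 Tim genes against day (3, 9 and 23), with SPC3372-treated mice in red left of saline mice in blue; each point is 1 mouse and each bar the mean of 3 mice. Timm9 and Timm8a1 show red points below blue at all 3 days, Timm17a shows red above blue at days 3 and 9, and the saline points of Timm9 lie near 8.01 at day 3 and 7.44 at day 9.

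Timm8b, another mouse gene of the Tim8 type, had small differences of -0.11 at day 3 and -0.12 at day 9 and a larger one of -0.32 at day 23 (SE 0.07). Its groups were apart at all 3 days, with a treated range of 9.11 to 9.27 against a saline range of 9.46 to 9.60 at day 23. Timm13, the partner of Timm8a1, differed by -0.28, -0.06 and -0.18 (SE 0.08), and its groups overlapped at day 9 only. At day 3 Timm13 was 10.72, 10.80 and 10.88 in treated mice, against 11.07, 11.17 and 11.0045 in saline mice. Timm10b, which docks the carrier chaperone on the TIM22 complex in human cells, differed by -0.02, -0.15 and -0.28 (SE 0.10), and its groups overlapped at each day. Of the 3 other Timm10b probe sets, 2 had all treated below all saline mice at day 23, with differences of -0.38 and -0.22.

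Timm22, the channel through which carriers are inserted, differed by -0.08, -0.07 and -0.14 (SE 0.08), and its groups overlapped at all days. Its dimmer second probe set gave 0.20, -0.02 and 0.26 (SE 0.14), so the probe sets disagreed in sign at days 3 and 23. Timm23, the presequence channel and the brightest member (mean 11.51), differed by 0.04, -0.03 and -0.09 (SE 0.07). Timm50, the presequence receptor, differed by -0.22, -0.19 and -0.34 (SE 0.13). Timm50 groups were apart at day 23 only, where treated mice had 7.75, 7.957 and 7.69 against 8.14, 7.963 and 8.31 in saline mice, so the highest treated and lowest saline mouse nearly met. A second Timm50 probe set (mean 7.27) gave 0.07, -0.20 and 0.00, so it did not show the day 23 difference.

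Of the 10 members, 8 had lower values in treated livers at day 3, 9 at day 9 and 9 at day 23, and 8 were lower at all 3 days. All treated mice lay below all saline mice for 5 members at day 3, 3 at day 9 and 7 at day 23. Over all genes, 10.4%, 11.2% and 11.1% had all treated below all saline mice at those days. All treated mice lay above all saline mice for 1 member (Timm17a) at day 3, 1 at day 9 and 0 at day 23, against 11.1%, 10.4% and 8.12% of all genes. Timm9, Timm8a1 and Timm8b were wholly below saline at all 3 days. Timm13, Timm23 and Timm50, wholly below at day 23, overlapped saline when the p0617 arrays of the same treated mice were used. Timm9 and Timm8a1 had been chosen for lower values at every day. The shares of all genes that were lower, or wholly below saline, at all 3 days were not counted. The median difference of the 10 members was -0.17, -0.11 and -0.30 at days 3, 9 and 23, beside 0.01, -0.02 and -0.02 over all genes.

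A gene was called where limma's adjusted p over all 18193 genes was under 0.05. Members had been selected on these contrasts, so their calls are listed beside the shares of all genes as a description, and nothing is read from them. At day 3 the calls were Timm9, Timm8a1 and Timm10 lower and Timm17a higher, with 1.88% of all genes called lower and 2.63% called higher. At day 9 they were Timm9 and Timm8a1 lower and Timm17a higher, with 0.896% of all genes called lower and 1.91% higher. At day 23 they were Timm9 and Timm8a1 lower and 0 members higher, with 0.198% of all genes called lower and 0.187% higher. No call was made at any day for the other 6 members. At day 23 the calls of Timm9 and Timm8a1 were both lost when any 1 of the 6 arrays was left out, which leaves 0 members called, while the differences stayed between -0.37 and -0.32 for Timm9 and between -0.55 and -0.44 for Timm8a1. At day 3 the count was 1 (Timm9) without treated replicate 1, and the call of Timm17a was lost when any 1 of the 6 arrays was left out. The day 3 call of Timm8a1 was lost without replicate 1 or 2 of either group, and that of Timm10 without treated replicate 1 or saline replicate 3. At day 9 the count was 1 without treated replicate 1 (Timm8a1 kept) or saline replicate 1 (Timm9 kept), and Timm17a was no longer called without treated replicate 1, treated replicate 3 or saline replicate 2.

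**Figure D2:**
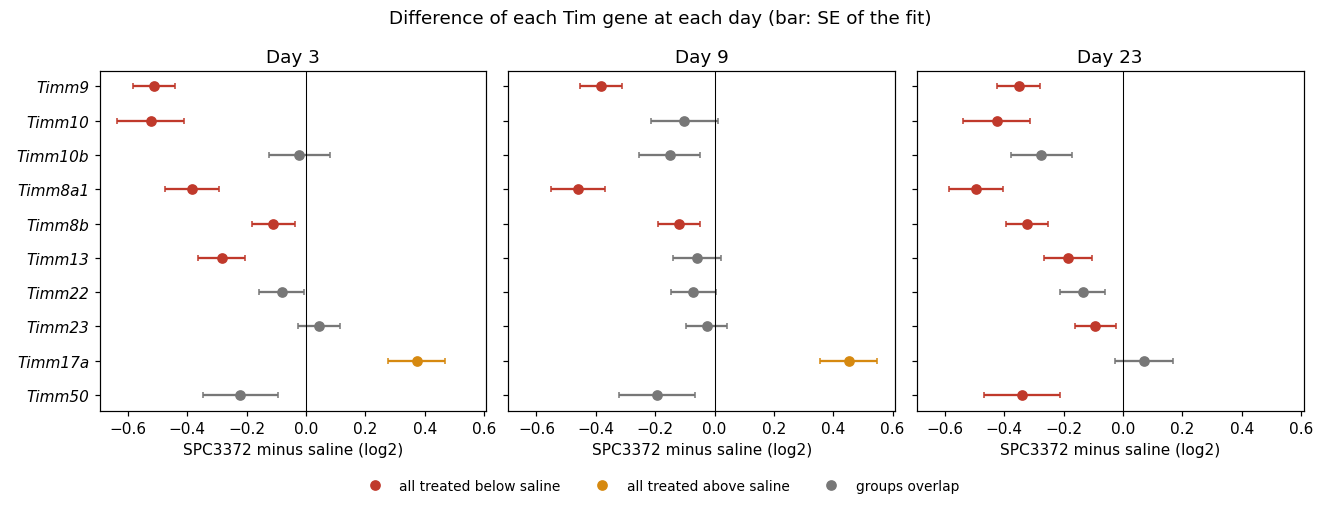
Treated minus saline difference (log2, horizontal axis) of each Tim gene at days 3, 9 and 23 with its standard error from the fit over 18 arrays; red marks genes with all treated mice below all saline mice, ochre those with all treated mice above, grey those that overlap. Timm9 and Timm8a1 lie between -0.51 and -0.35 at every day, and Timm17a lies at 0.37 and 0.45 at days 3 and 9.

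The treated-minus-saline differences of different days combine the values that chose the members, so their change between days is given as a description with no test. The Timm10 difference was 0.42 log2 units nearer to 0 at day 9 than at day 3 (SE 0.16). The Timm17a difference was lower at day 23 than at day 9, by -0.38 (SE 0.14).

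Timm9 also differed between days within each treatment, in contrasts that the selection did not use. These contrasts share their day 3 and day 9 arrays with the comparisons that chose the members, so they are not independent of it. In saline livers Timm9 fell by 0.57 log2 units at day 9 relative to day 3 (SE 0.07, limma adjusted p = 0.000127), a level 1.48-fold lower. In treated livers it fell by 0.44 log2 units over the same days (SE 0.07, limma adjusted p = 0.00086), or 1.36-fold. All 3 mice of day 9 lay below all 3 mice of day 3 in both treatments, and the saline and treated contrasts share no array. With the replicate number as a block, the call was kept (limma adjusted p = 0.000426 in saline and 0.00202 in treated livers). In saline mice of days 3 and 9 that number is also the mouse number of the labels. The block is shared by treated and saline groups, so it does not test whether a saline mouse was used at both days. The call was kept in treated livers without either array of a mouse numbered 8 (limma adjusted p = 0.00409 without the day 3 array and 0.00297 without the day 9 array). Timm9 was the only member called in either contrast, with 3.12% of all genes called lower and 2.76% higher in saline livers, and 4.95% lower and 7.28% higher in treated livers. At an unadjusted p under 0.05, 2 members differed in saline livers and 4 in treated livers. Timm10 differed by -0.29 in saline livers (SE 0.11, limma adjusted p = 0.166) and by 0.13 in treated livers (SE 0.11, limma adjusted p = 0.497). Timm8a1 differed by 0.02 in saline livers (SE 0.09, limma adjusted p = 0.958) and by -0.06 in treated livers (SE 0.09, limma adjusted p = 0.73). Timm13 differed by 0.24 in treated livers (SE 0.08, limma adjusted p = 0.0658). When Timm9 was taken as the mean of its probe sets, the dim one included, the fall was 0.40 in saline livers (limma adjusted p = 0.0504) and 0.30 in treated livers (limma adjusted p = 0.0936), and the call was lost in both.

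Ordered by level, Timm9 was highest in saline mice of day 3 (8.01 ± 0.07, SD, n = 3). Treated mice of day 3 (7.50 ± 0.05) and saline mice of day 9 (7.44 ± 0.06) came next and overlapped each other. Saline mice of day 23 followed at 7.35 ± 0.01. Treated mice of day 9 (7.06 ± 0.08) and of day 23 (6.997 ± 0.06) were lowest and overlapped. The order across days 9 and 23 crosses array sets. Timm8a1 formed 1 upper block of the 3 saline groups, 10.37 ± 0.11 at day 9, 10.36 ± 0.02 at day 23 and 10.35 ± 0.15 at day 3, which overlapped. Its lower block held the 3 treated groups, 9.96 ± 0.05 at day 3, 9.91 ± 0.11 at day 9 and 9.86 ± 0.11 at day 23, which overlapped too.

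The 3 treated mice of day 23 had an array in each set, which shows how far a member moved between sets in the same animal. Timm9 was 7.03, 6.93 and 7.03 in set p0621, against 6.97, 6.78 and 6.95 in set p0617. Timm8a1 was 9.86, 9.75 and 9.97 in p0621, against 9.81, 9.76 and 9.99 in p0617. The sets differed by 0.10 for Timm9 (SE 0.08) and by 0.01 for Timm8a1 (SE 0.07), and the widest gap for any member and mouse was 0.37, in Timm50. With the mouse as a block, limma called 0 of 18193 genes between sets (0% of all genes) and 1864 had an unadjusted p under 0.05; among members 0 of 10 passed at either level. Set against the p0621 saline mice, the p0617 arrays of these mice gave -0.45 for Timm9, -0.50 for Timm8a1 and -0.45 for Timm10, a contrast that crosses sets. For Timm8b that value was -0.17, against -0.32 within p0621, and for Timm50 it was -0.17, against -0.34. Timm13, Timm22 and Timm23 gave -0.07, -0.02 and -0.03, against -0.18, -0.14 and -0.09 within p0621. Timm10b gave -0.27 and Timm17a 0.08, against -0.28 and 0.07. Treated mice overlapped saline mice on the p0617 arrays for Timm13, Timm23 and Timm50, which were wholly below saline within p0621.

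**Figure D3:**
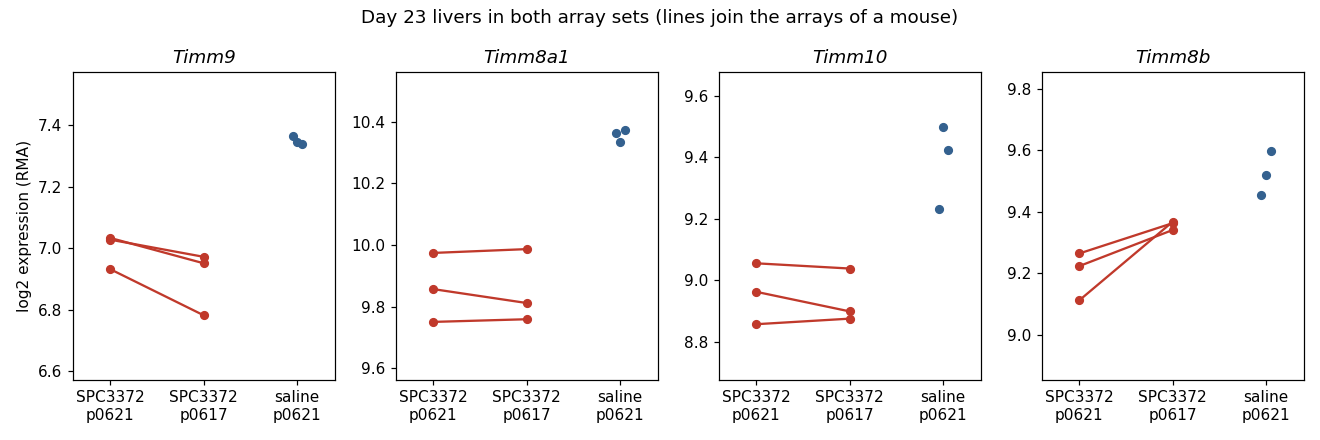
Log2 level (RMA) of Timm9, Timm8a1, Timm10 and Timm8b at day 23 in SPC3372-treated mice on p0621 arrays, the same mice on p0617 arrays (lines join a mouse) and saline mice on p0621 arrays; each panel has its own range. In each panel both arrays of every treated mouse lie below all saline mice. For Timm8b the p0621 arrays (9.11 to 9.27) lie lower than the p0617 arrays (9.34 to 9.37).

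RNA quality and cell markers moved with treatment at some days. The log2 ratio of the 3′ to the 5′ beta-actin control probe sets, which is higher where the labelled RNA is shorter, was 1.03 ± 0.02 in treated mice against 0.80 ± 0.05 in saline mice at day 3 (SD, n = 3 each). It was 1.14 ± 0.02 in treated mice against 0.93 ± 0.06 in saline mice at day 9, with groups apart at both days. At day 23 it was 1.15 ± 0.16 in treated mice against 1.16 ± 0.04 in saline mice, and the groups overlapped. At days 3 and 9 the ratio differed between treated and saline mice, so RNA quality and treatment cannot be told apart there. With the ratio as a covariate the differences at days 3, 9 and 23 were -0.56, -0.43 and -0.35 for Timm9 and -0.47, -0.54 and -0.49 for Timm8a1. Under that covariate the calls lower were Timm9 alone at day 3, 0 members at day 9 and Timm8a1 alone at day 23. Between days within a treatment, the ratio was also higher at day 9 than at day 3, and with it as a covariate the fall of Timm9 was 0.60 in saline livers (limma adjusted p = 0.00128) and 0.46 in treated livers (limma adjusted p = 0.00333).

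At day 3, 6 of 8 Kupffer cell markers rose in treated livers (Clec4f, Marco, Cd5l, Vsig4, Adgre1 and Cd68), and their summed linear signal over all 8 was 7571 to 11669 in treated mice against 4418 to 7721 in saline mice. Of the lymphocyte markers 3 of 9 rose (Ccl5, Gzma and Gzmb), with a sum of 576.4 to 704.3 in treated mice against 329.8 to 388.4 in saline mice. Of the endothelial markers 1 of 7 rose (Clec4g), with a sum of 2663 to 3343 in treated mice against 2163 to 2638 in saline mice. The stellate list had 0 of 7 called at day 3 by limma (1 at an unadjusted p under 0.05), with a sum of 3545 to 5163 in treated mice against 3968 to 4383 in saline mice. At day 9, 2 of 7 stellate markers rose (Reln and Dcn) and 1 of 7 endothelial markers (Clec4g), with stellate sums of 4563 to 4815 in treated mice against 3079 to 3838 in saline mice, and endothelial sums of 2582 to 3232 in treated mice against 2420 to 2515 in saline mice. The Kupffer list at day 9 had 0 of 8 called by limma (3 at an unadjusted p under 0.05) and sums of 5900 to 6420 in treated mice against 5263 to 6743 in saline mice, and the lymphocyte list had 0 of 9 (0 at an unadjusted p under 0.05). At day 23 these 4 lists had 0 called genes by limma (2 Kupffer, 1 lymphocyte, 3 endothelial and 1 stellate gene at an unadjusted p under 0.05), with Kupffer sums of 5969 to 7518 in treated mice against 6351 to 6874 in saline mice. At that day stellate sums were 4593 to 5893 in treated mice against 3832 to 4652 in saline mice, endothelial sums 2657 to 2900 in treated mice against 2562 to 2778 in saline mice, and lymphocyte sums 382.5 to 439.4 in treated mice against 372.4 to 399.4 in saline mice, with overlapping groups in each list. Marker genes were above the median level in full for all lists but the lymphocyte list (8 of 9). From day 3 to day 9, 4 of 8 Kupffer and 3 of 9 lymphocyte markers fell in treated livers, and 0 of either list in saline livers. Of the 8 hepatocyte markers, 1 fell in each treatment. In treated livers 1 endothelial marker rose and 1 fell, and 1 stellate marker rose. Over all genes, 4.95% were called lower in treated and 3.12% in saline livers. The part of these cells in the Tim differences, or in the fall of Timm9 between days, was not tested.

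Other genes of the import machinery were taken from lists of complexes. Among 40 other measured machinery genes, 2 fell and 0 rose at day 3, 0 fell and 1 rose at day 9, and 0 passed at day 23, by limma with adjustment over all genes; at an unadjusted p under 0.05 there were 13, 9 and 9 at days 3, 9 and 23. The calls are 5% of the list lower at day 3, beside 1.88% of all genes, and 2.5% higher at day 9, beside 1.91% of all genes. Their median difference was -0.12, -0.09 and -0.10 at days 3, 9 and 23, beside -0.17, -0.11 and -0.30 for the Tim members. All treated mice lay below all saline mice for 15, 14 and 13 of these 40 genes. All treated mice lay above for 1, 3 and 1 of them. Over all genes, 10.4%, 11.2% and 11.1% lay wholly below, and 11.1%, 10.4% and 8.12% wholly above. Lower values were thus not particular to the Tim members. Lonp1, the protease of the mitochondrial matrix, fell by 0.34 log2 units at day 3 (9.29 ± 0.04 in treated mice against 9.63 ± 0.05 in saline mice, limma adjusted p = 0.0183). Timm21, a subunit that links TIM23 to the respiratory chain in yeast, fell by 0.31 at day 3 (8.25 ± 0.09 in treated mice against 8.56 ± 0.05 in saline mice, limma adjusted p = 0.0308). Chchd4, the oxidoreductase that folds the small Tim proteins in the intermembrane space, rose by 0.41 at day 9 (8.91 ± 0.09 in treated mice against 8.50 ± 0.11 in saline mice, limma adjusted p = 0.028). Gfer, which reoxidises Chchd4, had differences of -0.19, -0.21 and -0.16 at days 3, 9 and 23, with limma adjusted p between 0.215 and 0.417. The call of Timm21 was lost under 9 of 15 alternatives, among them each of 5 single arrays left out (treated replicates 1 and 2 and saline replicates 1, 2 and 3). That of Chchd4 was lost under 8 of 15, among them treated or saline replicate 2 or 3 left out, and that of Lonp1 under 5 of 15, among them treated or saline replicate 2 left out.

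Some genes of the import complexes are given whether or not they passed, and of these Timm44, Timm17b, Hspa9, Tomm20 and Tomm40 passed at no day. Timm44, which tethers the import motor to TIM23, differed by -0.20, -0.17 and -0.24 (SE 0.08), with all treated mice below all saline mice at each day and limma adjusted p of 0.167, 0.258 and 0.151. Timm17b, the paralogue of Timm17a, differed by -0.17, -0.08 and -0.05 (SE 0.07, limma adjusted p = 0.213, 0.615 and 0.83), against 0.37, 0.45 and 0.07 for Timm17a. Hspa9, the motor chaperone, differed by -0.30 at day 3 (SE 0.08, limma adjusted p = 0.0529) and by -0.02 and 0.07 at the later days. Tomm20, a receptor on the outer membrane, differed by -0.26, -0.23 and -0.13 (SE 0.09, limma adjusted p = 0.122, 0.204 and 0.584). Tomm40, the outer pore, differed by -0.08, 0.01 and -0.27 (SE 0.17, limma adjusted p = 0.866, 0.981 and 0.526). By list, the medians at days 3, 9 and 23 were -0.17, -0.08 and -0.10 for the other 9 TIM23 and motor genes, -0.06, -0.01 and -0.08 for 3 other TIM22 genes, and -0.06, -0.07 and -0.11 for 8 TOM genes. The TIM22 list holds Timm8a2, whose level of 2.67 is under the median of the array (4.79) and whose own value is the day 9 median. The other 2 TIM22 genes differed by -0.06, 0.03 and -0.23 (Timm29) and by -0.17, -0.02 and -0.08 (Agk). The TOM list holds Tomm20l, whose level of 3.77 is also under the median of the array. List medians were -0.24, -0.22 and -0.18 for 4 SAM genes and -0.19, -0.21 and -0.04 for 3 disulfide relay genes. They were -0.12, -0.09 and -0.05 for 13 processing and folding genes.

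Genes for proteins that enter by way of the small Tims or the Chchd4 relay were examined as 45 clients, of which 28 encode members of the Slc25 carrier family, 3 encode VDAC pores of the outer membrane and 14 encode twin-cysteine proteins of the Chchd4 relay. Slc25 carriers sit mostly in the inner membrane, though the list also holds Slc25a17, known from peroxisomes, and Slc25a46, known from the outer membrane. At day 3, 1 fell and 0 rose; at day 9, 0 fell and 1 rose; at day 23, 0 were called by limma. The single call at each of days 3 and 9 is 2.22% of the list, near the 1.88% of all genes called lower at day 3 and the 1.91% called higher at day 9. At an unadjusted p under 0.05 there were 11, 14 and 8 at the 3 days. All treated mice lay below all saline mice for 11, 6 and 10 of the 45 clients, and above for 1, 9 and 3. Over all genes, 10.4%, 11.2% and 11.1% lay wholly below, and 11.1%, 10.4% and 8.12% wholly above. Slc25a12, an aspartate-glutamate carrier, fell by 0.49 at day 3 (6.93 ± 0.19 in treated mice against 7.41 ± 0.16 in saline mice, limma adjusted p = 0.0161), a call lost under 7 of 15 alternatives, among them treated replicate 1 or 3 or saline replicate 1 left out, and the value was -0.16 with the mean of its probe sets. Slc25a25, an ATP-Mg/phosphate carrier, rose by 1.37 at day 9 (9.51 ± 0.11 in treated mice against 8.14 ± 0.62 in saline mice, limma adjusted p = 0.0114), a call lost under 3 of 15, among them treated replicate 3 left out, and the value was 0.69 with the mean of its probe sets. Slc25a5, an adenine nucleotide carrier and a textbook client of the Timm9 and Timm10 chaperone, differed by -0.04, -0.02 and -0.21 (SE 0.10, limma adjusted p = 0.873, 0.95 and 0.359). The client medians at days 3, 9 and 23 were -0.02, 0.12 and -0.05 for carriers, -0.14, -0.01 and -0.03 for VDAC genes, and -0.13, -0.03 and -0.10 for twin-cysteine genes.

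**Figure D4:**
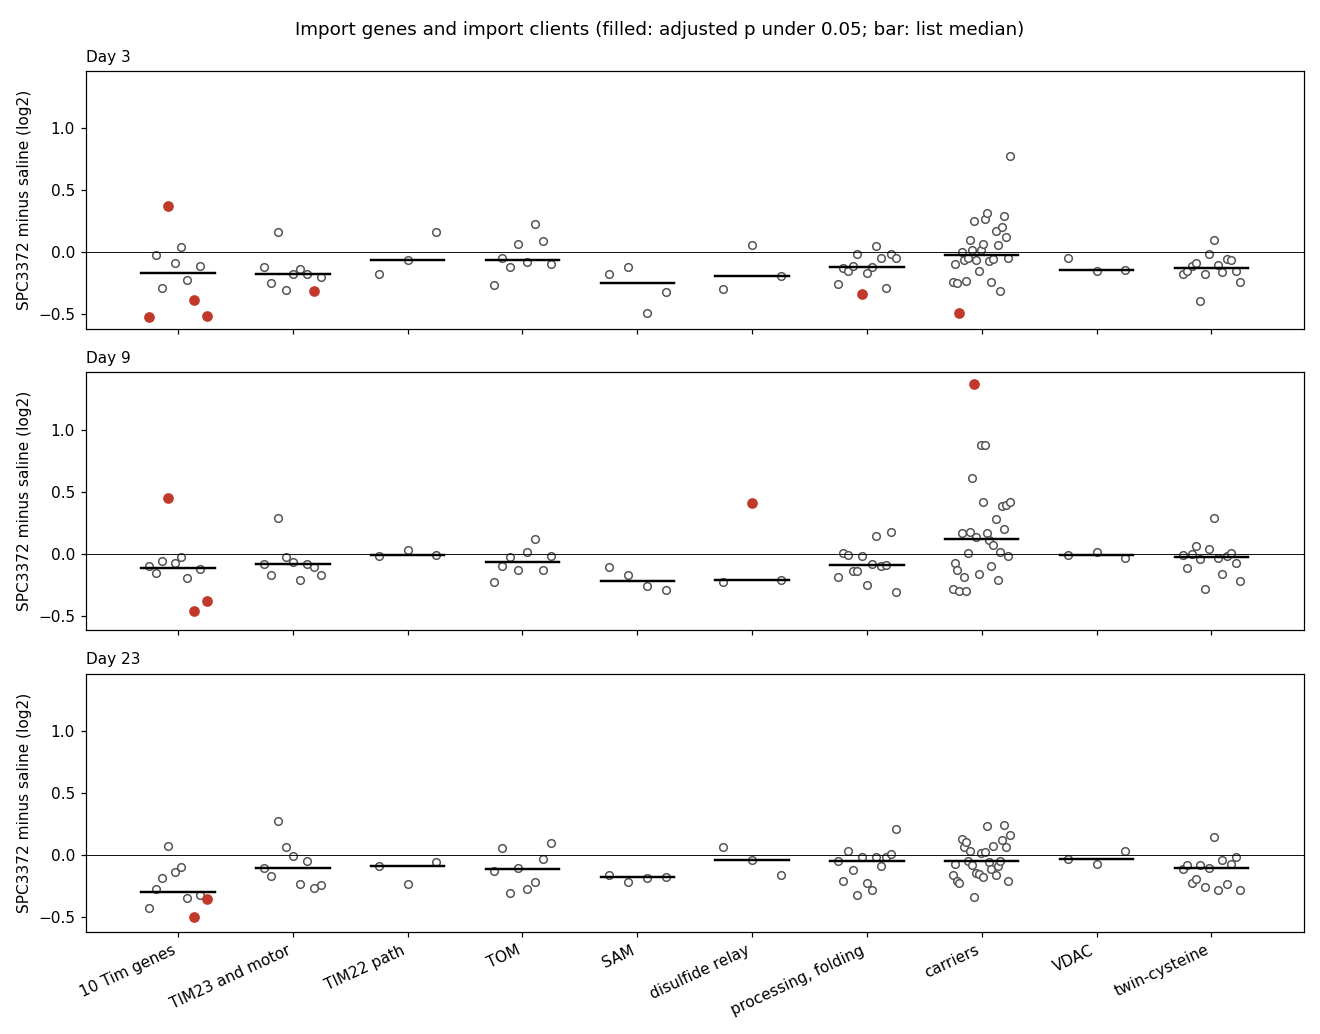
Treated minus saline difference (log2, vertical axis) at days 3, 9 and 23 for the 10 Tim genes and 9 lists of other import genes and import clients; each point is a gene, filled where limma's adjusted p over all genes was under 0.05, and the bar is the list median. The Tim median is -0.30 at day 23, the other medians lie nearer 0 at that day, and the high filled carrier at day 9 is Slc25a25 (1.37). At days 3 and 9 some other medians, among them those of SAM and the disulfide relay, lie below the Tim median.

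Between days 3 and 9, 2 machinery genes rose and 1 fell in saline livers, and 4 rose and 2 fell in treated livers (5% higher and 2.5% lower of the 40 in saline livers, 10% higher and 5% lower in treated livers); the names that follow were chosen after their values were seen, apart from Tomm20 and Gfer. Tomm20 shared the direction of Timm9, falling by 0.46 in saline livers (SE 0.09, limma adjusted p = 0.00537) and by 0.43 in treated livers (SE 0.09, limma adjusted p = 0.00574). Grpel2, a nucleotide exchange factor of the import motor, rose by 1.19 in saline livers (SE 0.14, limma adjusted p = 0.000107) and by 1.32 in treated livers (SE 0.14, limma adjusted p = 3.07e-05). Mtx3, a metaxin of the outer membrane, rose by 0.66 in saline livers (limma adjusted p = 0.0466) and by 0.88 in treated livers (limma adjusted p = 0.00529). The other genes called in treated livers were Timm21 and Lonp1, which rose by 0.41 and 0.43, and Gfer, which fell by 0.28. Among the 45 clients, 2 rose (Slc25a42 and Slc25a47) and 1 fell (Slc25a45) in saline livers, and 8 rose and 1 fell (Slc25a51) in treated livers. These are 4.44% higher and 2.22% lower in saline livers, and 17.8% higher and 2.22% lower in treated livers. Over all genes, 2.76% were called higher and 3.12% lower in saline livers, and 7.28% higher and 4.95% lower in treated livers.

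None of 4 pairs of members passed as correlated from mouse to mouse, and pairs were taken from known complexes apart from Timm9 with Timm8a1. After each group's mean was removed, Timm9 and Timm10 correlated at r = -0.13 (exact permutation within groups, two-sided p = 0.671) and rho = -0.17 (p = 0.594) over 18 mice. Timm8a1 and Timm13 gave r = -0.08 (exact permutation p = 0.801) and rho = 0.12 (p = 0.692). Timm10b and Timm22 gave r = 0.33 (exact permutation p = 0.228) and rho = 0.21 (p = 0.474). Timm9 and Timm8a1 gave r = 0.41 (exact permutation p = 0.228) and rho = 0.41 (p = 0.209). Over these 4 pairs the Benjamini-Hochberg values of r lay between 0.456 and 0.801, and those of rho were all 0.692. Without the 2 mice farthest from the median of the first gene, r was -0.04, -0.14, 0.20 and 0.36 in the same order of pairs. Within the p0617 arrays of days 3 and 9 (n = 12), r was -0.25, 0.01, 0.33 and 0.31, and within the p0621 arrays (n = 6) it was 0.35, -0.31, 0.32 and 0.84, all with exact permutation p above 0.05.

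The genes most like Timm9 over the 18 arrays, each array centred on the mean of its day, were Fmc1 (r = 0.947), Idh3b (0.941), Nop10 (0.94), Smim26 (0.937) and Ginm1 (0.927), ranked among 11685 genes above the median level. For Timm8a1 they were Tm2d3 (r = 0.94), Ginm1 (0.936), Nop10 (0.931), 2310039H08Rik (0.92) and Atp5o (0.917), so Nop10 and Ginm1 stood in both lists. Fmc1 helps assemble the ATP synthase in yeast, Atp5o is one of its subunits, Idh3b is a subunit of the mitochondrial isocitrate dehydrogenase, and Nop10 belongs to the box H/ACA ribonucleoprotein of the nucleolus. Timm9 and Timm8a1 correlated at 0.914 on this measure. Timm13 and Timm10 reached 0.8 and 0.759 with Timm9, Timm23 reached 0.206, and Timm17a gave -0.782. All arrays share the treatment difference and the array processing, so these values describe likeness of pattern over 18 arrays and carry no test. Fmc1 itself differed by -0.53, -0.50 and -0.57 at days 3, 9 and 23, and Ginm1 by -0.40, -0.40 and -0.38.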

How the data were processed

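Total liver RNA from 18 mice (6 groups of 3) was read on 21 one-colour Affymetrix arrays, with a second array for each of the 3 treated mice of day 23. Values were deposited by the authors as log2 expression per probe set; RMA is named in the submitters' processing notes, without a version, and which arrays were normalized together is not given in the sources used here. Medians of the arrays lay between 4.75 and 4.82, so no further scaling was applied. Deposited values lay between 2.15 and 15.0, and no detection call was used. Precision is limited by 3 mice a group.

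Of 45101 probe sets, 34945 carried a single gene symbol in the platform annotation, 932 several and 9224 none; Entrez identifiers matched RefSeq for 34741 and updated 0 symbols. Each of the 18193 genes was taken by its brightest probe set over 18 arrays. Group means were fitted with limma 3.58.1 in R 4.3.3 (lmFit and eBayes, 12 residual and 4.85 prior degrees of freedom), with p-values adjusted by Benjamini-Hochberg over all genes at 0.05. Day 23 used the p0621 arrays. Contrasts were treated minus saline at each day, day 9 minus day 3 within each treatment and p0621 minus p0617 with the mouse as a block. In the deposited design the 3 samples of a group are separate mice. The members and the 16 gene lists were chosen with earlier results of these data known. Named genes are all members, every other import gene called at a day (up to 6), a standing set of 8 (Chchd4, Gfer, Tomm20, Tomm40, Timm44, Timm17b, Hspa9 and Slc25a5) and the 5 genes most like Timm9 and Timm8a1.

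Treated and saline samples with the same replicate number in the titles, which are mice of different numbers, did not deviate together (correlations of deviations from group means between -0.137 and 0.0763, 0 of 9 above 0.1), so replicate numbers were not taken to pair mice. Saline mice numbered alike at days 3 and 9 correlated at -0.153 to 0.0569 in these deviations and the treated mice numbered 8 at 0.128, and they were taken as different animals. The fit was also run on simulated data, and that outcome is not reported here. Alternatives were another normalization, centring, filter, probe set rule, variance prior, block, RNA quality covariate, array set, the 6 arrays alone, and each array left out.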

Additional observations from a re-analysis of the deposited data

How the results depend on the processing

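Every one of the 15 alternatives kept Timm9 and Timm8a1 lower in treated livers at days 3 and 9, and every one of 16 did at day 23. Nearly all alternatives recompute values from the arrays that chose these genes, so the kept direction is a description only. The difference of Timm9 ranged between -0.56 and -0.47 at day 3 and between -0.44 and -0.34 at day 9. At day 23 it moved to -0.23 with the mean of probe sets and to -0.45 with the p0617 arrays of the treated mice. Signs changed under some alternatives for Timm10b, Timm22, Timm23 and Timm50 at day 3, Timm13 and Timm23 at day 9, and Timm22 at day 23. With the mean of probe sets, Timm50 moved to 0.02 at day 3 and Timm22 to 0.06 at days 3 and 23.

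With only the 6 arrays of each comparison, members called lower were 1 (Timm9), 0 and 0 at days 3, 9 and 23, members called higher 0 and 0 at days 3 and 9, and other import genes called 0. With the beta-actin ratio as a covariate, members called lower were 1, 0 and 1, members called higher 0 and 0, and other import genes 0. The number of members called lower at day 23 was 1 (Timm8a1) with median centring or every probe set. With the mean of probe sets it was 1 (Timm8a1) at day 9, and 0 members fell between days 3 and 9 in either treatment. Timm13 alone rose between days 3 and 9 in treated livers with median centring, the filter, the mean of probe sets or the trend and robust prior (1 member each). Other import genes called lower at day 3 numbered 1 with quantile normalization, 4 with the mean of probe sets, and 5 with the filter on dim genes or with the trend and robust prior. At day 23 they numbered 2 with quantile normalization, the filter or that prior, and 1 with the mean of probe sets or the p0617 arrays. Under quantile normalization 0 rose at day 9. The cause of these moves was not tested, apart from fewer arrays or genes where the alternative removes them.

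The replicate block left 0 members called lower at day 23 and 0 called higher at day 3. It also left 0 other import genes called lower at day 3 or higher at day 9. The block did not move the other counts by over 1.5 times. Of 9 treated mice, 3 correlated best with the saline mouse of their own replicate number. Leaving out 1 array at a time gave 1 to 4 members called lower at day 3, 1 to 2 at day 9 and 0 at day 23, members called higher 0 at day 3 and 0 to 1 at day 9, and other import genes called lower 0 to 3 at day 3 and higher 0 to 1 at day 9. Members called between days 3 and 9 stayed at 1 (Timm9) in each treatment. The pair correlations turned sign within 1 array set, to 0.35 for Timm9 with Timm10 in p0621 and to 0.0113 for Timm8a1 with Timm13 in p0617. No result met the criteria for a closer look, which do not test groups of 3 for outlying samples. Signal over background was not analysed here, so dim probe sets such as the second one of Timm9 carry no detection call.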
